A study of Mus musculus with 48 samples.

Results

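The 10 genes described here encode CC chemokines and chemokine receptors that guide T cells and dendritic cells into, within and out of skin. The ligands were Ccl1, Ccl17, Ccl22, Ccl19 and Ccl20, and the receptors were Ccr8, Ccr4, Ccr7, Ccr6 and Ccr10. They were picked by gene symbol out of the 19147 genes that the annotation of the array names, and each was measured by 1 probeset. Of the 10 genes, 9 were bright enough to be tested, because the Ccr8 probeset had a mean of 2.84 on the log2 scale, at the 23.5th percentile of all probesets, and probesets under the 25th percentile were left out.

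The ligands lie on chromosome 11 (Ccl1, gene ID 20290), chromosome 8 (Ccl17, gene ID 20295, and Ccl22, gene ID 20299), chromosome 4 (Ccl19, gene ID 24047) and chromosome 1 (Ccl20, gene ID 20297). The receptors lie on chromosome 9 (Ccr8, gene ID 12776, and Ccr4, gene ID 12773), chromosome 11 (Ccr7, gene ID 12775, and Ccr10, gene ID 12777) and chromosome 17 (Ccr6, gene ID 12458).

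Chemokines are small secreted proteins that bind to G protein-coupled receptors on leukocytes and set the direction in which these cells move. Ccl1 is the ligand of Ccr8, which is carried by skin-homing and regulatory T cells. Ccl17 and Ccl22, made by dendritic cells, Langerhans cells and keratinocytes, share the receptor Ccr4 on skin-homing and type 2 helper T cells. Ccl19 is bound by Ccr7, which takes naive T cells and maturing dendritic cells to lymph nodes, and Ccl20, an epidermal chemokine, draws Ccr6-bearing T cells and Langerhans cell precursors. Ccr10 answers to Ccl27a of keratinocytes, which is not analysed here.

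Skin of 48 mice was profiled with 1 array per mouse after dosing with inhibitors of DGAT1, an enzyme of triglyceride synthesis. All were male C57BL/6 mice made obese on a high-fat diet, 8 weeks old per the labels, and were dosed by mouth for 14 days with vehicle (0.5% methylcellulose) or a compound, after which skin was taken, dorsal per the labels and dorsal and/or ventral per the methods. Study 1 had 8 mice each on Vehicle, Cpd1 and Cpd2, Study 2 had 4 mice each on Vehicle, Cpd2 and Cpd6, and Study 4 had 4 mice each on Vehicle, Cpd18 and Cpd6. The study calls Cpd2 and Cpd6, which caused sebaceous gland atrophy, skin-positive and the other 2 compounds skin-negative. Doses were 30 mg/kg by the methods except where another is named, the same dose need not give the same exposure, and the dose of Cpd1 on the arrays was not clear because 3 mg/kg is named beside its histology. Cpd1 is therefore set beside Cpd2 with no comparison of the pair. The mice of a group are separate samples per the labels, litters and cages are not given, and each study had its own vehicle mice, so levels are compared within a study.

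The tissue read as skin, with the mean log2 level of 10 markers of differentiated keratinocytes at 10.51 or higher in each mouse, and array medians lay between 26.39 and 30.78 in linear intensity. One feature of the biopsies has to be stated before the results, since it touches the Cpd2 group of Study 1. The mean log2 level of 19 skeletal muscle markers, muscle lying under the skin, was 5.49, 6.33, 7.44 and 8.29 in 4 of the 8 Cpd2 mice (replicates 3, 7, 4 and 2) and 10.85 to 12.03 in the other 4. In the other groups this level was at or above 10.25, the lowest being vehicle replicate 4 of Study 1. Each of the 19 muscle markers fell in the Cpd2 group of Study 1, with a median difference of −2.74, against 6% of all probesets called lower. For Cpd2 in Study 2, 0 of 19 were called. Because skin is a mixture, a lower level of any gene can mean fewer cells of a type or less RNA per cell, and these cannot be told apart here.

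Ccl1 was the homing gene that rose with every skin-positive treatment, and it did so by the largest difference of the 10 genes each time. In Study 1 the vehicle mice ran from 4.87 to 5.57 (median 5.24) in log2 intensity, the Cpd1 mice from 4.95 to 6.03 (median 5.52) and the Cpd2 mice from 8.65 to 10.27 (median 9.42). Every Cpd2 mouse lay above every vehicle mouse, and the Cpd1 and vehicle mice overlapped. Against vehicle the difference with Cpd2 was 4.31 log2 (SE 0.20, limma adjusted p = 1.23e-13, n = 8 per group), which is 19.9-fold, and the difference with Cpd1 was 0.27 (SE 0.20, adjusted p = 0.582).

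In Study 2 the Ccl1 level was 5.29, 5.34, 5.51 and 5.79 in the vehicle mice, 8.36, 8.75, 8.91 and 9.30 with Cpd2, and 8.31, 8.65, 8.89 and 8.97 with Cpd6. Both treated groups lay wholly above vehicle and overlapped each other. The differences were 3.35 (SE 0.20, adjusted p = 6.77e-07) for Cpd2 and 3.22 (SE 0.20, adjusted p = 1.14e-06) for Cpd6, with n = 4 per group. In Study 4 the vehicle mice had 4.12, 4.29, 4.31 and 4.33, the Cpd18 mice 4.20, 4.40, 4.66 and 4.78, and the Cpd6 mice 6.44, 6.84, 7.26 and 7.36. The Cpd6 mice again stood apart, by 2.71 (SE 0.19, adjusted p = 1.99e-06), while Cpd18 and vehicle mice overlapped (difference 0.25, SE 0.19, adjusted p = 0.768). The study chose Ccl1 as a marker on Studies 1 and 2, so its rise there is not independent evidence. Nor is its lack of a call with Cpd1, because that choice dropped probesets with a low p for Cpd1 against vehicle. Study 4 was not used for that choice.

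**Figure D1:**
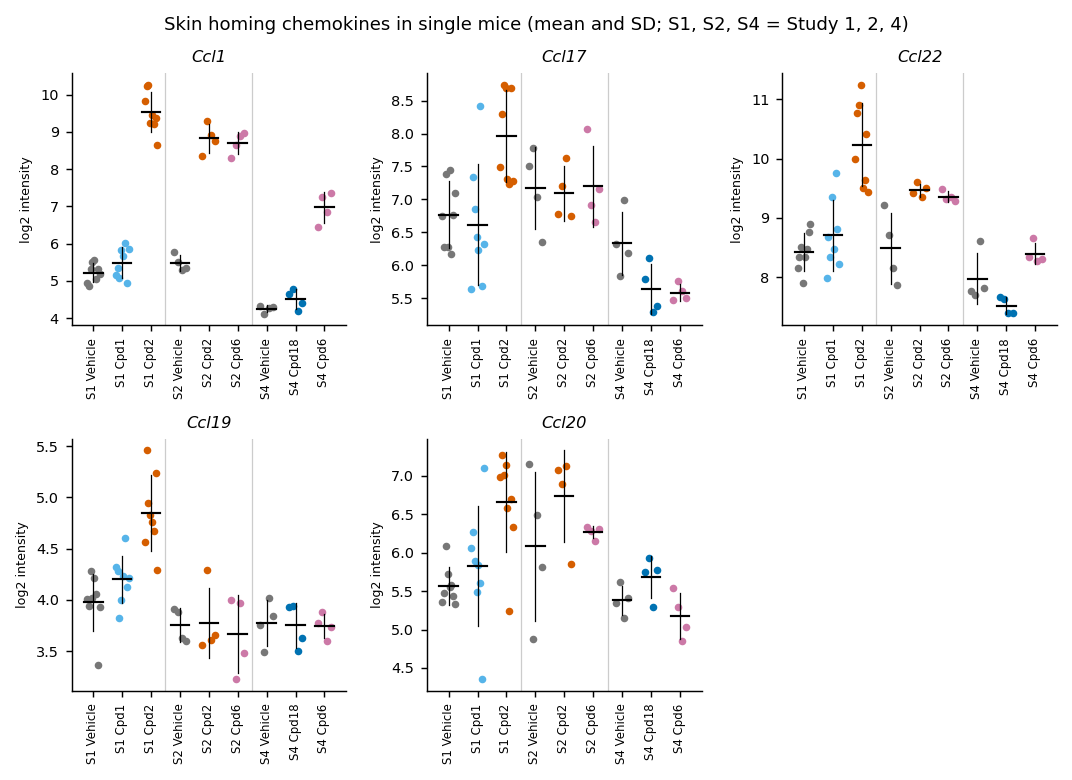
Log2 intensity of the 5 ligands in each of the 48 mice, grouped by study and treatment, with the group mean (bar) and SD (line). The Cpd2 and Cpd6 mice lie above the vehicle mice of their own study for Ccl1, from 8.65 upwards for Cpd2 in Study 1 and from 6.44 upwards for Cpd6 in Study 4.

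The order of the 9 group means of Ccl1 ran from Cpd2 in Study 1 (9.53) through Cpd2 (8.83) and Cpd6 (8.71) in Study 2 to Cpd6 in Study 4 (6.97). Below these came Cpd1 in Study 1 (5.49), the vehicles of Studies 2 and 1 (5.48 and 5.22), Cpd18 (4.51) and the vehicle of Study 4 (4.26). Cpd2 and Cpd6 of Study 2, and Cpd1 of Study 1 and the vehicle of Study 2, were neighbours whose means differed by less than their pooled SD.

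Ccr8, the receptor of Ccl1, was called in none of the 8 comparisons between groups. It ran from 2.38 to 3.85 (median 2.72) in the vehicle mice of Study 1, from 2.25 to 3.86 (median 2.5) with Cpd1 and from 2.73 to 4.31 (median 3.37) with Cpd2, and the groups overlapped. When all probesets were tested, Ccr8 differed by 0.53 with Cpd2 in Study 1 (95% interval −0.02 to 1.07, adjusted p = 0.254), by −0.02 with Cpd2 in Study 2 (−0.83 to 0.78), by 0.17 with Cpd6 in Study 2 (−0.63 to 0.98) and by 0.16 with Cpd6 in Study 4 (−0.22 to 0.54). Each of these intervals includes a rise of over 0.5, so a rise of that size is not excluded.

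Ccl22 was the ligand with the next largest difference in Study 1. The vehicle mice ran from 7.91 to 8.90 (median 8.42), the Cpd1 mice from 7.98 to 9.76 (median 8.58) and the Cpd2 mice from 9.44 to 11.25 (median 10.20), with every Cpd2 mouse above every vehicle mouse. The difference with Cpd2 was 1.81 log2 (SE 0.26, adjusted p = 2.92e-05), or 3.51-fold. In Study 2 the level was 7.87, 8.16, 8.71 and 9.23 in vehicle, 9.35, 9.42, 9.50 and 9.60 with Cpd2, and 9.29, 9.32, 9.35 and 9.49 with Cpd6. The treated mice of both groups lay above all vehicle mice by a narrow gap, and neither difference passed the test (0.98, adjusted p = 0.146, and 0.87, adjusted p = 0.0958). In Study 4 the vehicle mice had 7.71, 7.77, 7.82 and 8.61, the Cpd18 mice 7.40, 7.40, 7.63 and 7.66, and the Cpd6 mice 8.27, 8.31, 8.35 and 8.65. Here 1 vehicle mouse reached into the Cpd6 range, the difference of 0.42 did not pass (adjusted p = 0.125), and all Cpd18 mice were under all vehicle mice (difference −0.45, adjusted p = 0.53).

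Ccl17, the other ligand of Ccr4, took a different course. In Study 1 it ran from 6.17 to 7.44 (median 6.75) in vehicle and from 7.24 to 8.74 (median 7.89) with Cpd2, a rise of 1.2 (SE 0.33, adjusted p = 0.0158) with some overlap. In Study 2 the 3 groups overlapped, with differences of −0.08 for Cpd2 and 0.03 for Cpd6. In Study 4 it was 5.85, 6.19, 6.33 and 6.99 in vehicle, 5.29, 5.39, 5.79 and 6.11 with Cpd18, and 5.47, 5.5, 5.61 and 5.76 with Cpd6. It fell with Cpd6 by 0.75 (SE 0.22, adjusted p = 0.0420), a call that was lost with array medians set equal (limma adjusted p = 0.0514) and in 7 of the 8 fits that left out 1 mouse, the exception being the fit without vehicle replicate 2. The difference with Cpd18, −0.69, was of like size and did not pass (adjusted p = 0.429), and Cpd6 and Cpd18 differed by −0.06 (95% interval −0.53 to 0.41).

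Ccr4, the receptor of both, was measured at low levels. It rose in Study 1 with Cpd2, from 2.89 to 3.58 (median 3.2) in vehicle to 3.23 to 4.39 (median 3.90), by 0.63 (SE 0.16, adjusted p = 0.00701). In Study 2 the differences were 0.58 with Cpd2 (adjusted p = 0.632) and 0.36 with Cpd6 (adjusted p = 0.654), and the vehicle mice spread from 2.37 to 3.80. In Study 4 every Cpd6 mouse (3.66 to 3.85) lay above every vehicle mouse (3.18 to 3.66), with a gap too small to show at 2 decimals, and the difference of 0.32 did not pass (adjusted p = 0.116).

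Ccl19 was called with Cpd2 in Study 1 and in no other comparison. It ran from 3.36 to 4.28 (median 4.01) in vehicle, from 3.82 to 4.60 (median 4.22) with Cpd1 and from 4.29 to 5.46 (median 4.80) with Cpd2. The Cpd2 mice lay just above the vehicle mice, and the rise was 0.87 (SE 0.15, adjusted p = 0.000313). In Studies 2 and 4 the group means lay between 3.67 and 3.78, and the 4 differences from vehicle between −0.08 and 0.02. The effect of Cpd2 was 0.84 larger in Study 1 than in Study 2 (95% interval 0.35 to 1.34), which missed the threshold (adjusted p = 0.0746).

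Ccr7, its receptor, ran from 4.03 to 5.56 (median 5.11) in the vehicle mice of Study 1 and from 5.42 to 7.65 (median 6.13) with Cpd2, a rise of 1.43 (SE 0.28, adjusted p = 0.000994) with overlap. In Study 2 it was 3.91, 4.09, 4.45 and 5.10 in vehicle, 4.75, 5.36, 5.70 and 6.01 with Cpd2, and 4.68, 4.74, 4.80 and 4.90 with Cpd6. The difference of 1.07 with Cpd2 was near that in Study 1 in size but did not pass with 4 mice per group (adjusted p = 0.278). In Study 4 the Cpd18 mice (3.13, 4.03, 4.30 and 4.40) lay under the vehicle mice (4.43, 4.58, 4.88 and 5.51), by −0.89 (adjusted p = 0.422), and Cpd6 and vehicle differed by 0.02 (95% interval −0.57 to 0.60).

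Ccl20 rose in Study 1 from 5.33 to 6.09 (median 5.51) in vehicle to 5.25 to 7.28 (median 6.84) with Cpd2, by 1.09 (SE 0.28, adjusted p = 0.00895), and 1 of the Cpd2 mice was below all vehicle mice. The Cpd1 mice spread from 4.35 to 7.11. In Study 2 its vehicle mice spread from 4.88 to 7.15, wider than both treated groups, and the differences of 0.65 and 0.18 did not pass. Ccr6, the receptor of Ccl20, was not called in any comparison. Its largest difference from vehicle was 0.55 with Cpd2 in Study 2 (adjusted p = 0.628), its difference with Cpd2 in Study 1 was 0.42 (adjusted p = 0.155), and the Cpd18 mice (4.85 to 5.29) lay under the vehicle mice (5.32 to 5.68) of Study 4 by −0.47 (adjusted p = 0.429).

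Ccr10, the receptor with no ligand among these genes, lay between group means of 3.04 and 3.71 and was called nowhere. Its difference with Cpd2 in Study 1 was 0.01 (95% interval −0.39 to 0.41).

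**Figure D2:**
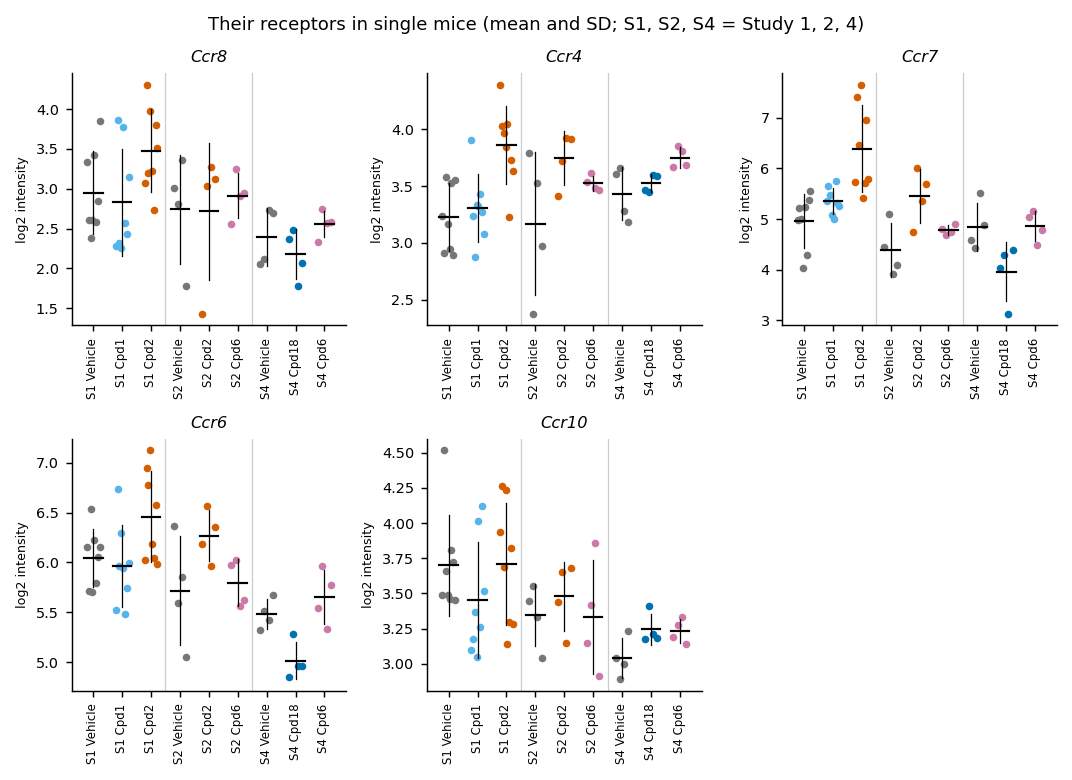
Log2 intensity of the 5 receptors in each of the 48 mice, grouped by study and treatment, with the group mean (bar) and SD (line). Ccr7 is highest with Cpd2 in Study 1 (5.42 to 7.65), and Ccr8 and Ccr10 overlap between the treated and vehicle mice of every study.

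Counted together, 7 of the 9 tested genes rose with Cpd2 in Study 1, against 7.09% of all 28789 probesets tested, and 0 fell. The median difference of the 9 was 1.09, and that of all probesets was 0.04. Ccl1, Ccl22 and Ccl19 had every Cpd2 mouse above every vehicle mouse, which held for 1.49% of all probesets. With Cpd1, 0 of 9 were called by limma, against 0.327% of all probesets. Of the 9, 0 had an unadjusted limma p under 0.05, against 3794 of all 28789 probesets.

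In Study 2 the call was made for Ccl1 alone with Cpd2 (0.0417% of all probesets were higher) and for Ccl1 alone with Cpd6 (0.0903%). With Cpd2, 5 of 9 had an unadjusted limma p under 0.05, all higher: Ccl1, Ccl22, Ccr7, Ccr4 and Ccr6. So did 2124 of 28789 probesets in either direction. With Cpd6 it was 2 of 9, Ccl1 and Ccl22, both higher, and 3384 of 28789 probesets. The median differences of the 9 genes were 0.58 with Cpd2 and 0.18 with Cpd6, beside 0.02 over all probesets for each. Ccl1 and Ccl22 did not overlap with vehicle in either comparison, which held in that direction for 1.89% and 4.31% of all probesets. In Study 4, 1 gene rose with Cpd6 (Ccl1, against 4.56% of all probesets) and 1 fell (Ccl17, against 6.17%). Ccl1 and Ccr4 lay wholly above vehicle with Cpd6 (8.82% of all probesets) and Ccl17 wholly below (10.1%). For Cpd6 in Study 4, counts of 1 or 2 in 9 lie near these shares. There an unadjusted limma p under 0.05 was reached by 4 of 9 (Ccl17 lower, Ccl1, Ccl22 and Ccr4 higher). It was reached by 7984 of 28789 probesets in either direction. With Cpd18, 0 of 9 were called by limma, against 0.00347% of all probesets. An unadjusted limma p under 0.05 was reached by 4 of 9, all lower, and by 2291 of 28789 probesets in either direction. Ccl22, Ccr7 and Ccr6 lay wholly under vehicle (1.98% of all probesets).

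**Figure D3:**
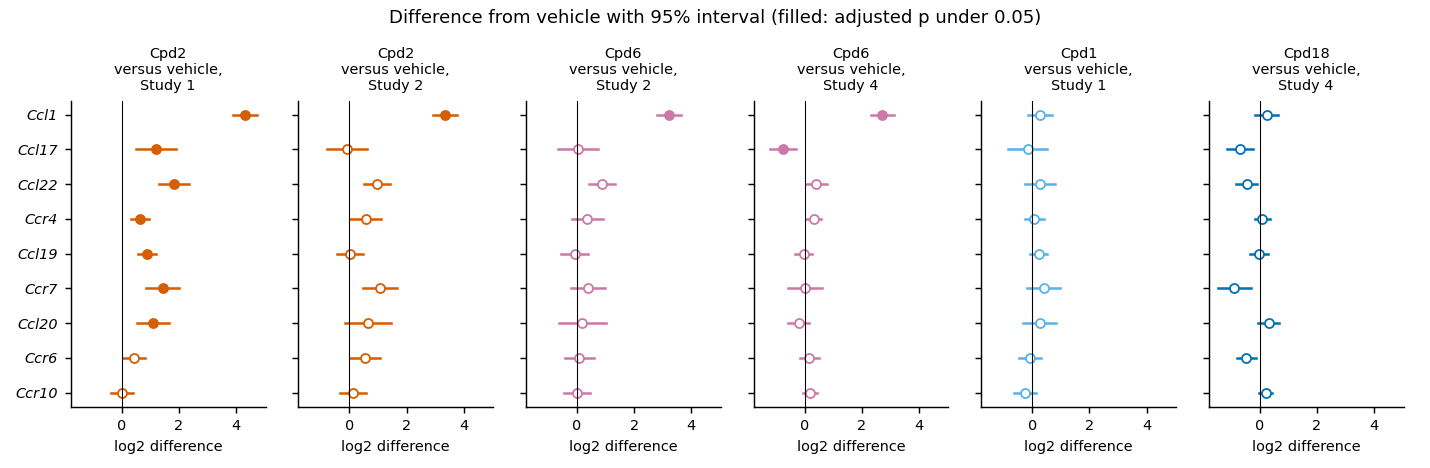
Log2 difference from vehicle of the 9 tested genes (points) with 95% intervals (lines) in the 6 comparisons with vehicle, filled where the adjusted p was under 0.05. Ccl1 is filled in all 4 panels of the skin-positive compounds and in neither panel of Cpd1 (0.27) and Cpd18 (0.25).

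Ccl1, Ccl22, Ccl17, Ccl20 and Ccr7 rose by over 1 log2 with Cpd2 in Study 1. The 250 bases before the start of transcription are shown for the 4 of them with an entry in the RefSeq promoter table (GRCm38.p6). Capitals mark matches on either strand to the NF-kappaB core, written here as GGG and CC with any 5 bases between them, and to the STAT6 core, written as TTC and GAA with any 4 bases between them. The TATAAA box was searched as well. The sequences run 5′ to 3′ on the strand of the gene, at chr11:82179813-82180062 (minus strand) for Ccl1, chr8:94745434-94745683 (plus strand) for Ccl22, chr8:94810203-94810452 (plus strand) for Ccl17 and chr1:83116516-83116765 (plus strand) for Ccl20.
Ccl1: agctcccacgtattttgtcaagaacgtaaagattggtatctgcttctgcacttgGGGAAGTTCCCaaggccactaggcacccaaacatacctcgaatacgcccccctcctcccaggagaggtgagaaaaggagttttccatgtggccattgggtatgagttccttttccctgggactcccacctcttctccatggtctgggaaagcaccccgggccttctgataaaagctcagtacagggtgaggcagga
Ccl22: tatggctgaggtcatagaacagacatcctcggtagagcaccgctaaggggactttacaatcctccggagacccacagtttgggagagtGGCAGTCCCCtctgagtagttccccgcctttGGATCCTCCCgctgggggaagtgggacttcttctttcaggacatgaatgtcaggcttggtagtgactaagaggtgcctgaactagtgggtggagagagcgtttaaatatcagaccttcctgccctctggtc
Ccl17: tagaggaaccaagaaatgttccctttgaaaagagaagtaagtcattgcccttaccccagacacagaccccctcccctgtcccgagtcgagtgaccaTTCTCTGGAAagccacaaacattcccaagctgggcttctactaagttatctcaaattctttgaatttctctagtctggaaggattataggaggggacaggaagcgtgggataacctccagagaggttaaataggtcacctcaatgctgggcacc
Ccl20: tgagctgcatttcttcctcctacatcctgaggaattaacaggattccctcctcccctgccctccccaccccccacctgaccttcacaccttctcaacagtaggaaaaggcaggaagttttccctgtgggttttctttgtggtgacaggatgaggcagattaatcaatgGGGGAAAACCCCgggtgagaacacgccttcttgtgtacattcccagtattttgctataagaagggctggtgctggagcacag

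The NF-kappaB core was found in Ccl1, Ccl22 and Ccl20 and also in 45.8% of all 32851 promoters of this length, where several entries can belong to 1 gene. It was also found before Ccl19, Ccr8 and an entry of Ccr6, and of these Ccr8 and Ccr6 were not called in any comparison. In Ccl1 the match on the strand of the gene, GGGAAGTTCC, lies 196 to 187 bases before the start and overlaps a match on the opposite strand. Ccl22 has 2 matches on the opposite strand, and in Ccl20 3 overlapping matches fill bases 82 to 71. The STAT6 core was found in Ccl17, 154 to 145 bases before the start, and in 5.85% of all promoters. TATAAA, found in 12.4% of promoters, was in none of the 4 windows. A match describes letters and is no measured site.

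Compounds at the same nominal dose could be compared in 2 pairs. Between Cpd2 and Cpd6 in Study 2, limma called 0 of 9 homing genes and 0% of all probesets. An unadjusted p under 0.05 was reached by 2370 of all 28789 probesets and by 1 of the 9 genes, which lies near that share. The gene was Ccr7 (difference 0.68, 95% interval 0.09 to 1.27, limma adjusted p = 0.524). For Ccl1 the pair differed by 0.12 (95% interval −0.30 to 0.54) and for Ccl22 by 0.11 (−0.35 to 0.56). For Ccr8 the difference was −0.20 (−1.0 to 0.61). Between Cpd6 and Cpd18 in Study 4, Ccl1 in the Cpd6 mice exceeded that in the Cpd18 mice by 2.46 (SE 0.19, adjusted p = 4.10e-06) and Ccl22 by 0.87 (SE 0.17, adjusted p = 0.0312), while 0.0486% of all probesets were higher. Of the remaining 7 genes, Ccr7 (0.90, adjusted p = 0.202), Ccr6 (0.64, adjusted p = 0.0991) and Ccl20 (−0.51, adjusted p = 0.260) had an unadjusted p under 0.05. Over all 28789 probesets, 3588 had such a p. Ccl1, Ccl22, Ccr4, Ccr7 and Ccr6 lay wholly above in the Cpd6 mice, which held for 2.72% of all probesets. Of the 8 fits that left out 1 mouse, 1 kept the Ccl22 call, that without Cpd18 replicate 1.

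The effect of a compound was also compared between studies. Cpd2 changed 0 of the 9 genes by a different amount in Studies 1 and 2 at an adjusted p under 0.05, while 0.726% of all probesets were called. An unadjusted p under 0.05 was reached by 4434 of all 28789 probesets and by 4 of the 9 genes: Ccl1 (0.97 larger in Study 1, adjusted p = 0.0983), Ccl17 (1.28, adjusted p = 0.196), Ccl22 (0.83, adjusted p = 0.278) and Ccl19. Of these the Ccl17 effect was 1.2 in Study 1 and −0.08 in Study 2. For Cpd6 in Studies 2 and 4, limma called 0 of 9 and 0% of all probesets. Of the 9, 0 had an unadjusted p under 0.05, against 2223 of all 28789 probesets.

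Within the Cpd2 group of Study 1, Ccl22, Ccl17, Ccl19, Ccr7 and Ccr6 split along with the muscle markers, and the other 5 homing genes did not. The cut at 4 mice was chosen after seeing the data. The share of all probesets that split this way was not computed, so the split cannot be called particular to these genes. The 4 mice low in muscle markers had Ccl22 from 10.41 to 11.25 and the other 4 from 9.44 to 9.996. For Ccl17 these ranges were 8.29 to 8.74 and 7.24 to 7.49, and for Ccl19 they were 4.83 to 5.46 and 4.29 to 4.76. Among the receptors, Ccr7 ran from 6.46 to 7.65 in the former and from 5.42 to 5.79 in the latter, and Ccr6 from 6.57 to 7.13 and from 5.99 to 6.19. The 4 mice with low muscle levels were thus the highest 4 of the 8 Cpd2 mice for each of these genes. Ccl1 overlapped, with 9.23 to 10.27 in the former and 8.65 to 9.83 in the latter, and so did Ccl20, Ccr4, Ccr8 and Ccr10. Marker levels of T cells (7.30 to 7.57 against 6.94 to 7.15), regulatory T cells (7.22 to 7.70 against 6.95 to 7.16), dendritic and Langerhans cells (8.94 to 9.08 against 8.56 to 8.73), mature dendritic cells (7.63 to 7.84 against 7.28 to 7.56) and macrophages (9.28 to 9.55 against 8.68 to 9.18) were higher in the same 4 mice without overlap.

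**Figure D4:**
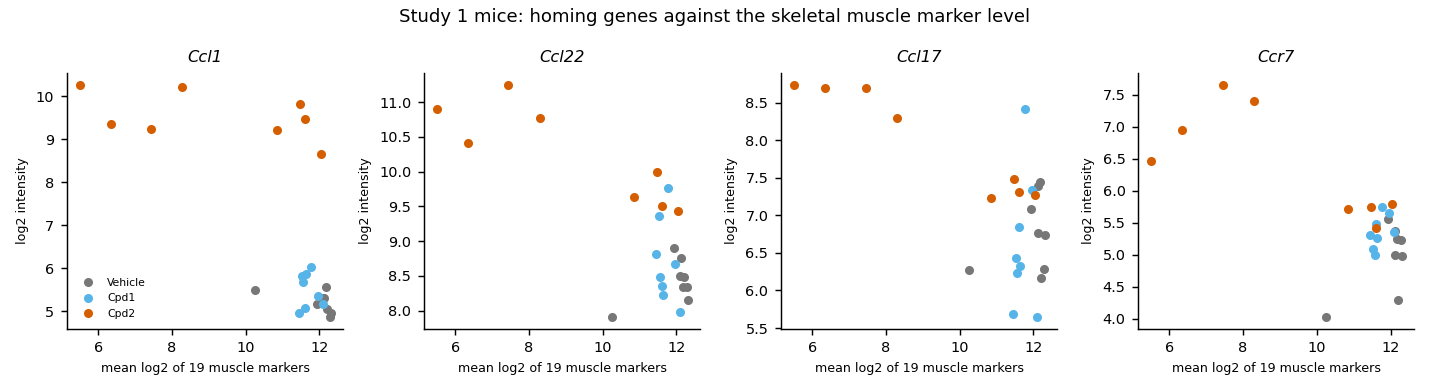
Log2 intensity of Ccl1, Ccl22, Ccl17 and Ccr7 in the 24 mice of Study 1 against the mean log2 level of 19 skeletal muscle markers, coloured by treatment. The 4 Cpd2 mice between 5.49 and 8.29 on the horizontal axis have the highest Ccl22, Ccl17 and Ccr7 of the 8 Cpd2 mice, and Ccl1 is high in all 8 Cpd2 mice.

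Without those 4 mice, 3 of the 9 genes rose with Cpd2 in Study 1 in place of 7: Ccl1 (4.07, adjusted p = 1.32e-10), Ccl22 (1.22, adjusted p = 0.00747) and Ccl19 (0.59, adjusted p = 0.0451), while 2.12% of all probesets were higher. Ccr7 (0.70, adjusted p = 0.0991), Ccr4 (0.60, adjusted p = 0.121), Ccl20 (0.72, adjusted p = 0.300) and Ccl17 (0.56, adjusted p = 0.507) did not pass. With the muscle level as a covariate, Ccl1 and Ccl22 were called, by 4.02 and 1.26, and 2.21% of all probesets were higher. The differences of the 5 genes no longer called were then 0.62 for Ccl19 (adjusted p = 0.0506), 0.64 for Ccr4 (adjusted p = 0.0798), 0.90 for Ccr7 (adjusted p = 0.121), 0.81 for Ccl20 (adjusted p = 0.233) and 0.59 for Ccl17 (adjusted p = 0.491), that of Ccr4 being as large as without the covariate. The part of the muscle content in the other 5 rises was not tested.

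Each ligand was then related to its receptor across mice, on values from which the mean of the mouse's group had been taken, so that a treatment shared by both made no relation. Over 48 mice, 1 of 5 pairs passed by Pearson's r, that of Ccl19 and Ccr7, with r = 0.46 (permutation test, adjusted p = 0.0300) and Spearman's rho = 0.50 (adjusted p = 0.00500). Leaving out the 2 mice farthest from the median of Ccl19 gave r = 0.48. The relation did not pass within a study, with r = 0.38 in Study 1, 0.53 in Study 2 and 0.77 in Study 4 (permutation adjusted p = 0.351, 0.244 and 0.0952). It was r = 0.28 (permutation adjusted p = 0.245) without the 4 Cpd2 mice of Study 1 that were low in muscle markers, and −0.13 in the remaining 20 mice of Study 1. The call was thus lost without those 4, while the values of Studies 2 and 4 do not include them.

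Ccl20 and Ccr6 had r = 0.42 (permutation adjusted p = 0.0698) and rho = 0.43 (permutation adjusted p = 0.0234), with r = 0.38 without the 2 farthest mice, 0.43, 0.42 and 0.37 in Studies 1, 2 and 4, and 0.31 without the 4 mice (permutation adjusted p = 0.245). Ccl1 and Ccr8 had r = 0.28 and rho = 0.27 (permutation adjusted p = 0.149 and 0.165), 0.36 without the 2 farthest mice, and 0.15, 0.55 and 0.60 in the 3 studies. For Ccr4 the values were near 0, r = 0.13 with Ccl22 (permutation adjusted p = 0.665) and −0.03 with Ccl17 (permutation adjusted p = 0.858), with rho = 0.09 and −0.01. In the single groups of 8 mice in Study 1, an exact permutation test passed for 0 of 15 pairs, the lowest adjusted p being 0.437.

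**Figure D5:**
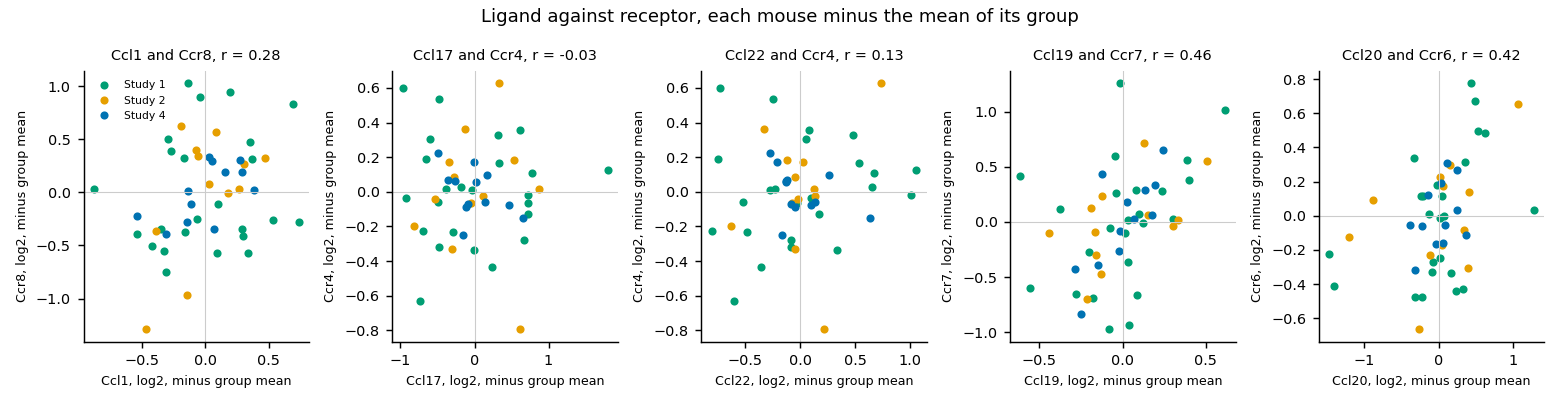
Each ligand (horizontal axis, log2 intensity minus the mean of the mouse's group) against its receptor (vertical axis, same scale) in 48 mice, coloured by study. The cloud slopes upwards for Ccl19 and Ccr7 (r = 0.46) and for Ccl20 and Ccr6 (r = 0.42) and is without slope for Ccl17 and Ccr4 (r = −0.03).

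Some homing genes that do not bind each other were also related. Of the 40 other pairs of the 10 genes, the highest were Ccl17 and Ccl22, the pair of Ccr4 ligands, with r = 0.70 and rho = 0.65 (permutation adjusted p = 0.000800 and 0.00107), Ccl22 and Ccr7 with r = 0.65 and rho = 0.66 (permutation adjusted p = 0.00107 and 0.00100), and Ccl17 and Ccr7 with r = 0.61 and rho = 0.68 (permutation adjusted p = 0.000800 and 0.00100). Without the 2 farthest mice r was 0.65, 0.60 and 0.65. Within Studies 1, 2 and 4 it was 0.71, 0.57 and 0.85 for Ccl17 and Ccl22, 0.69, 0.48 and 0.68 for Ccl22 and Ccr7, and 0.64, 0.44 and 0.67 for Ccl17 and Ccr7. Without the 4 mice that were low in muscle markers these fell to 0.61, 0.46 and 0.51 (permutation adjusted p = 0.0240, 0.0267 and 0.0144), and rho for Ccl17 and Ccl22 no longer passed (0.49, permutation adjusted p = 0.0512).

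The homing genes were also related to marker lists of the cells that make or carry them, 50 relations in all. Ccr7 went with 13 T cell markers (r = 0.71, rho = 0.68, permutation adjusted p = 0.000500 and 0.000250), with r = 0.85, 0.35 and 0.62 in Studies 1, 2 and 4. Ccr6 went with 14 dendritic and Langerhans cell markers (r = 0.70, rho = 0.71, permutation adjusted p = 0.000500 and 0.000250), with r = 0.60, 0.93 and 0.61 in the 3 studies. Ccr6 and the T cell markers had r = 0.67 and rho = 0.63 (permutation adjusted p = 0.000750 and 0.000667), with 0.65, 0.71 and 0.68 in the studies. Ccl22 and the T cell markers had r = 0.62 and rho = 0.57 (permutation adjusted p = 0.000850 and 0.00214), with 0.65, 0.72 and 0.34. Without the 2 farthest mice these were 0.66, 0.69, 0.66 and 0.60, and without the 4 mice 0.54, 0.63, 0.55 and 0.47 (permutation adjusted p = 0.0377, 0.0190, 0.0377 and 0.0415), while rho for Ccl22 and the T cell markers no longer passed (0.40, permutation adjusted p = 0.0697).

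Markers of T cells and dendritic cells were also higher in the Cpd2 mice of Study 1. With Cpd2 in Study 1, 9 of 13 T cell markers rose, among them Lat and Cd3d (0.77 and 0.74), 4 of 6 regulatory T cell markers (Ctla4 1.21, Tnfrsf9 1.38), 6 of 14 dendritic and Langerhans cell markers (Cd207 0.53), 5 of 9 mature dendritic cell markers (Il4i1 1.02) and 0 of 9 macrophage markers, against 7.09% of all probesets. The median differences of these lists were 0.64, 0.96, 0.33, 0.52 and 0.19, beside 0.04 over all probesets. In the same comparison 8 of 10 differentiated keratinocyte markers rose, and 5 of 9 sebocyte markers fell (Scd3 −3.68), against 6% of all probesets lower. Tnfrsf4 in the regulatory T cell list and Scd3 are, like Ccl1, markers the study chose on these samples. The 4 genes of that list that rose were Tnfrsf4, Ctla4, Tnfrsf18 and Tnfrsf9. Its other genes, Foxp3, Il2ra, Ikzf2 and Tigit, named after the calls were seen, were called in no comparison. Of the 8 listed genes, 6 were tested. The mean level of the T cell markers was 6.40 to 6.90 in vehicle and 6.94 to 7.57 with Cpd2. Without the 4 mice low in muscle markers, 3 of 13 T cell markers and 4 of 6 regulatory T cell markers rose. Of the dendritic and mature dendritic cell markers, 0 of 14 and 0 of 9 rose, and of all probesets 2.12%. In Study 2, Tnfrsf4 rose with Cpd2 (0.67) and Cpd6 (0.63) and Tnfrsf18 with Cpd6 (0.57), against 0.0417% and 0.0903% of all probesets higher. No T cell or dendritic cell marker was called there. The mean level of the regulatory T cell list there was at most 6.58 in vehicle, at least 6.81 with Cpd2 and at least 6.76 with Cpd6. The T cell marker means overlapped with vehicle in Study 2, and so did the means of the regulatory T cell list in Study 4. With Cpd6 in Study 4, 8 of 9 macrophage markers fell (C1qb −1.26) and 6 of 14 dendritic and Langerhans cell markers fell (Cd209a −1.32), against 6.17% of all probesets, while of the 13 T cell markers 1 rose (Cd3e) and 1 fell (Cd3g), close to the shares of all probesets. The mean macrophage marker level was 7.84 to 8.21 in the vehicle mice of Study 4 and 7.15 to 7.38 with Cpd6, the group in which Ccl17 fell, and 7.18 to 7.64 with Cpd18. Levels of hair shaft and inner root sheath markers spread widely in all 3 studies. Their mean was 3.47 to 10.57 in the vehicle mice and 3.49 to 5.89 with Cpd6 in Study 4, and in Study 2 it was 3.99 to 11.16 in vehicle, 3.66 to 7.40 with Cpd2 and 3.59 to 5.77 with Cpd6. The median differences of the 11 hair markers were −4.60 with Cpd6 in Study 4, −3.62 with Cpd2 and −4.71 with Cpd6 in Study 2, 2.00 with Cpd1 and −0.32 with Cpd2 in Study 1. Of the 11, 2 were called, both lower with Cpd6 in Study 4, where 6.17% of all probesets were lower. The part of these cells in the homing gene values was not tested.

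Other genes of leukocyte traffic in skin, 27 of them tested, gave 10 rises and 1 fall with Cpd2 in Study 1, with a median difference of 0.23, against 7.09% of all probesets higher, 6% lower and a median of 0.04. Among them were Cxcl16, a chemokine ligand of Cxcr6 (1.10, SE 0.14), Itgae, the integrin alpha E chain that holds T cells in the epidermis (0.64, SE 0.13), Cdh1, E-cadherin, to which that integrin binds (0.36, SE 0.05), and Ackr4, a scavenger receptor of Ccl19 (0.57, SE 0.12). The fall was that of Selp, P-selectin (−0.49, SE 0.15), which was picked out after its value was seen. Cxcl16 was the one gene of the 27 that rose in Study 2, by 0.75 with Cpd2 and 0.70 with Cpd6. Of all probesets, 0.0417% and 0.0903% were higher in these comparisons. Cxcl16 is among the markers the study chose on these samples.

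With Cpd6 in Study 4, 1 of the 27 rose (Klf2, a transcription factor of T cell exit from tissue, 0.45) and 4 fell, against 4.56% of all probesets higher and 6.17% lower, so that the single rise lies at the background share. Those that fell were Ccl8, a chemokine of macrophages and a further ligand of Ccr8 in mice (−1.65), Cxcr3 (−0.77), St3gal4 (−0.38) and Fut4 (−0.67, named after its value was seen). With Cpd1, 1 of 27 rose (Ackr2, a scavenger receptor of CC chemokines, 0.56), against 0.247% of all probesets. With Cpd18, 0 of 27 were called, against 0.00347%.

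A further list held 19 tested cytokines and factors that induce these ligands, along with cytokine receptors. Of the 19, 7 rose, against 7.09% of all probesets, and 0 fell with Cpd2 in Study 1, with a median difference of 0.26. Those that rose included Il23a (1.4, SE 0.23), Il1a (0.99, SE 0.20), Il33 (0.61, SE 0.10) and the receptor chain Il13ra1 (0.51, SE 0.11). Tslp, an epithelial cytokine that acts on dendritic cells, fell with Cpd6 in Study 4 by 0.78 (SE 0.17), and none of the other 18 was called there, so that 1 of 19 lies near the 6.17% of all probesets that fell. In Study 2 and with Cpd1 and Cpd18, limma called 0 of 19. Without the 4 mice low in muscle markers, 2 of the 27 traffic genes and 4 of these 19 genes rose with Cpd2 in Study 1, against 2.12% of all probesets.

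By likeness of pattern over the 48 mice, measured as Pearson's r of log2 intensity minus the mean of the vehicle mice of the study among 15320 genes, Ccl1 was closest to Ccl2 (0.89), Defb1 (0.85) and Cxcl16 (0.85). Ccl22 was closest to Il4i1 (0.91), Tnfrsf9 (0.88) and Ccl2 (0.86), and Ccr7 to Samsn1 (0.87), Il4i1 (0.85) and Tnfrsf9 (0.83). Ccl17 lay with Cd52 (0.79), Itgae (0.78) and Clec7a (0.77), and Ccr6 with Gzmc (0.79), Itgae (0.79) and Icos (0.75). Ccl20 was closest to Cryzl1 (0.73), Tnfrsf4 (0.73) and Rgs2 (0.72), and Ccl19 to Ccl7 (0.73), Ciita (0.71) and Gm5547 (0.71). The closest gene to Ccr4 was Lrrc1 (0.69) and to Ccr10 was Letm1 (0.55). These values include the treatment differences and describe the pattern only.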

How the data were processed

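RNA from skin of 48 mice was hybridised to 1 mouse expression array per mouse, and the authors summarised the probes by robust multi-array average (RMA, version not given in the sources used here). The deposited values are linear intensity after that step, 38385 probesets per array, between 1.595 and 13570, and they were turned to log2 here. Depth has no meaning for arrays, and the number of arrays limits the precision. Groups were taken from the sample labels. Of the probesets, 24478 name 1 gene in the platform annotation, 65 several and 13842 none, and names were taken only from the first. Where a gene had several probesets, that with the highest mean stood for it. The 28789 probesets at or above the 25th percentile of mean log2 intensity were fitted within each study with the package limma (version 3.58.1, under R 4.3.3), taking a mean for each treatment and an intensity trend, and called at a Benjamini-Hochberg adjusted p under 0.05 over all of them. Effects were compared between studies in 1 fit over 48 arrays. The fit was tested on simulated data with 200 of the 28789 probesets changed, and with 1 log2 of change it recovered 84% of them in the simulated comparison of Cpd1 with vehicle in Study 1, 64% for Cpd2 in Study 2 and 88% for Cpd18 in Study 4. False calls were 7.58%, 2.96% and 5.53% of the calls in these 3 simulated comparisons, in 2 of them above the 5% the threshold aims at. The study's methods used a one-way test of 2 groups with a fold of 1.2 and p of 0.01 as limits, called the methods' t-test here and run as an alternative.

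Relations between genes were taken over mice as log2 values minus the mean of the mouse's group, with two-sided p-values from 100000 permutations of mice within groups (the smallest possible is 1e-05), adjusted over 5 ligand and receptor pairs, 40 other pairs and 50 relations to marker lists. Values within studies were adjusted over all pairs and studies. Python 3.11.15, numpy 2.4.6, pandas 2.3.3 and scipy 1.17.1 were used. The homing genes and all lists were chosen with earlier results of these data known. Named genes were the 10 homing genes, up to 4 called genes of each list by lowest adjusted p, and the 3 genes most like each homing gene, and others are said to be named after their values were seen. No array was identical to another. Alternatives covered the filter, normalization, array weights, the variance trend, averaged probesets, muscle content, the replicate number as a block, the samples fitted, the methods' t-test and each mouse left out.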

Additional observations from a re-analysis of the deposited data

Results flagged for a closer look

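A mouse was marked where its gap to the nearest other mouse of its group exceeded the 95% limit of Dixon's test. Chance flags about 1 in 20 groups, and 7 of 90 sets of homing gene values and 4 of 54 sets of marker list levels were marked.

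Among the ligands, Ccl22 stood high in vehicle replicate 3 of Study 4 (8.61 log2), the mouse that reached into the Cpd6 range. Ccl19 stood low in vehicle replicate 7 of Study 1 (3.36) and high in Cpd2 replicate 2 of Study 2 (4.29). Ccl20 stood low in Cpd2 replicate 6 of Study 1 (5.25). Among the receptors, Ccr8 stood low in Cpd2 replicate 1 of Study 2 (1.43), and Ccr10 stood high in vehicle replicate 2 of Study 1 (4.52) and in Cpd18 replicate 2 of Study 4 (3.41).

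Vehicle replicate 4 of Study 1 had the lowest mean level of dendritic and Langerhans cell markers (7.91), macrophage markers (8.45) and skeletal muscle markers (10.2) of its group. The mean level of mature dendritic cell markers stood low in Cpd6 replicate 3 of Study 4 (6.42).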

How the results depend on the processing

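Of 2112 values of the homing genes recomputed under other settings, 2034 kept their direction and their side of the threshold, 41 lost a call, 12 gained one, 25 moved without a test and 0 reversed. Ccl1 carried the calls in Study 2 and Study 4. For Cpd2 in Study 1 the 7 calls became 2 with muscle content as a covariate, 4 without the 3 mice lowest in muscle markers and 3 without 4 such mice (a setting chosen after seeing the data), and leaving out single mice gave 7 to 7. For Cpd2 in Study 2, array weights gave 2 calls, the adjusted methods' t-test 0, and single mice left out 1 to 2, Ccl22 being added without vehicle replicate 1. For Cpd6 in Study 2, array weights gave 2 and single mice left out 1 to 2, again without vehicle replicate 1. For Cpd6 in Study 4 the 2 calls became 1, Ccl17 being lost, with array medians set equal, quantile normalization, no trend, the muscle covariate, 1 fit over all arrays and the methods' t-test at either threshold. Single mice left out gave 1 to 2 there, 2 without vehicle replicate 2 (Ccl1 and Ccl17) and without vehicle replicate 3 (Ccl1 and Ccl22). Cpd18 had 1 call (Ccr6, lower) at the methods' threshold. Between Cpd6 and Cpd18 the 2 calls became 1 with no trend, the muscle covariate or 1 fit over all arrays, 0 with the adjusted methods' t-test, and 1 to 2 with single mice left out. The difference in the effect of Cpd2 between Studies 1 and 2 had 0 calls, and 0 to 2 with single mice left out: Ccl19 without Cpd2 replicate 1, and Ccl1 and Ccl19 without Cpd2 replicate 8 or vehicle replicate 4, all of Study 1. The cause of these shifts was not tested.

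Mice with the same replicate number share only a number. Their deviations correlated at −0.44 to 0.38, and in no comparison did all pairs pass 0.1. With the replicate block, Cpd6 against vehicle and Cpd6 against Cpd18 in Study 4 had 1 call each in place of 2, and the counts of the other comparisons stayed within 1.5 times.

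The relation of Ccl19 and Ccr7 was 0.36 on residuals from muscle markers, 0.24 on residuals from T cell markers, 0.38, 0.53 and 0.77 in Studies 1, 2 and 4 alone and 0.28 without the 4 mice, none past the threshold, while Ccl20 and Ccr6 passed by rank (0.43). Ccl17 and Ccr4 had 0.00087 in Study 1 alone, and Ccl22 and Ccr4 had −0.0103 on residuals from T cell markers and −0.41 in Study 4 alone. Ccl17 had −0.0758 with regulatory T cell markers and −0.0675 with mature dendritic cell markers in Study 4 alone. Its relation to muscle markers, −0.40 over 48 mice, was 0.15 in Study 2, 0.0199 in Study 4 and 0.15 without the 4 mice. Ccr8, Ccr4, Ccl19 and Ccr10 lay under the 50th percentile of mean intensity, where the array shows small changes poorly.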
